A study of Mus musculus with 8 samples.

Results

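The levels of 10 genes that encode subunits of heterotrimeric G proteins were followed in bone marrow-derived dendritic cells (BMDCs) of WT mice and of mice in which 3 genes for G protein-coupled receptor kinases (GRKs) were targeted. The genes were given by name and found by their Ensembl identifiers among the 47937 genes of the count tables. They are 7 genes for alpha subunits (Gnai2, Gnai3, Gna12, Gna13, Gna15, Gnaq and Gnas), 2 for beta subunits (Gnb1 and Gnb2) and 1 for a gamma subunit (Gng2). They belong to a list of 33 mouse subunit genes, of which 16 encode alpha, 5 beta and 12 gamma subunits. Messenger RNA of mouse BMDCs, grown from bone marrow with 20 ng/ml GM-CSF for 8 to 9 days, had been sequenced in 8 libraries, 2 for each of 4 groups. WT cells came from Cre-negative mice, and 3xGrk-/- cells (KO in the labels) from mice with Vav-iCre, a germline Grk3-/- and the floxed alleles Grk2 fl/fl and Grk6 fl/fl. Both genotypes were adult mice on the C57BL6/J background, and cells of each were left unstimulated or received 20 ng/ml LPS, with GM-CSF, for 1 day. Vav-iCre acts in early blood cell precursors, so that the kinases were targeted before the cells became dendritic cells. The labels do not tie the libraries of a group to separate mice or cultures, and the methods speak of technical replicates of the RNA, so that all p-values measure only the spread between libraries, which may be technical.

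A heterotrimeric G protein couples a receptor in the cell membrane to the inside of the cell. On activation the alpha subunit exchanges GDP for GTP and parts from the beta-gamma pair, and both then act on effectors. Alpha subunits of the Gi class lower cAMP and release the beta-gamma pairs through which chemokine receptors steer leukocytes, the G12/13 class acts on guanine nucleotide exchange factors, the Gq class acts on phospholipase C-beta, and Gs raises cAMP. GRKs phosphorylate active receptors so that arrestins bind and coupling to the G protein ends, and GRK2 itself binds free beta-gamma pairs.

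The gene counts of a library summed to 4713305 to 6933358 reads, and the 10 subunit genes held from 22 to 7251 reads each in a library. Levels are given as CPM, counts relative to the size of the library, scaled with the trimmed mean of M-values over all 8 libraries. The RNA of the targeted kinases was lower in 3xGrk-/- cells: Grk2 kept 46.4% of its WT level without and 27.1% with LPS, Grk6 43.8% and 34.5%, and Grk3 78.1% and 75.0%. Reads counted over a whole gene do not tell intact from disrupted transcripts. For the 3 proteins, the paper's immunoblot of BMDCs from such mice showed a nearly complete loss. The 10 dendritic cell markers summed to 14220.8 and 14185.9 CPM in WT and 7142.0 and 7015.2 CPM in 3xGrk-/- libraries without LPS. With LPS they summed to 9233.4 and 9882.6 CPM in WT and 7972.8 and 7814.1 CPM in 3xGrk-/- libraries. H2-Aa, H2-Ab1, H2-Eb1 and Ccr7 made up most of each sum, whereas Flt3 had a mean of 17.2 CPM in unstimulated WT cells. Without LPS 7 of the 10 fell short of WT in 3xGrk-/- cells. The 3 that exceeded it were Flt3 (0.95 on the log2 scale), Ccr7 (0.24) and Itgax (0.19). After LPS 8 fell short, and the 2 that exceeded WT were Flt3 (1.35) and Itgax (2.34). The 10 macrophage markers summed to 1045.4 and 1017.6 CPM in unstimulated WT, 1555.0 and 1500.2 CPM in untreated 3xGrk-/-, 406.8 and 412.9 CPM in LPS-stimulated WT and 2787.1 and 2847.0 CPM in LPS-stimulated 3xGrk-/- libraries; before LPS 5 were higher and 4 lower in 3xGrk-/- cells (C1qa -1.61, C1qb -1.94, C1qc -1.88 and Fcgr1 -0.64 on the log2 scale), and after LPS all 10 were higher. The 5 eosinophil markers summed to between 899.8 and 977.1 CPM in WT and between 35.8 and 57.0 CPM in 3xGrk-/- libraries. Prg2 and Epx made up most of the WT sums. In 3xGrk-/- cells 4 of the 5 were lower before LPS and all 5 after it. Siglecf did not pass before LPS (log2 fold change -0.20, edgeR adjusted p = 0.258). The 10 neutrophil markers summed to between 340.2 and 766.5 CPM in WT and between 188.3 and 546.3 CPM in 3xGrk-/- libraries. The 6 mast cell and basophil markers summed to between 59.4 and 84.5 CPM. Sums of lymphocyte markers reached at most 0.764 and those of erythroid markers at most 0.382 CPM, with Alas2 and Hba-a1 at 0. Stromal markers summed to 137.2 and 126.5 CPM in LPS-stimulated 3xGrk-/- libraries and to at most 8.16 CPM elsewhere; Dcn alone made up 127.1 and 113.2 CPM of these sums, and the other 3 markers stayed at 5.67 CPM or less. Replicate 2 of LPS-stimulated 3xGrk-/- cells carried 2.16% of its counts on Gm42418, a gene that overlaps ribosomal RNA, against 0.273 to 0.638% in the other 7 libraries. In such bulk samples fewer cells of a type and less RNA per cell cannot be told apart. The part of these markers and of Gm42418 in the results that follow was not tested.

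The widest ranges of the group means were those of Gna15 (3.37 on the log2 CPM scale), Gng2 (1.86) and Gnai3 (0.81), and the narrowest that of Gnas (0.11). LPS raised Gng2 and Gnai3 in WT cells, and in 3xGrk-/- cells the response of neither gene passed the test. Gna15 fell after LPS in both genotypes, further in WT cells. Gene positions are those of GRCm38 (GENCODE M21). Because these 3 genes carry most of what follows, the 250 bases before their RefSeq start sites are shown (GRCm38.p6, 5′ to 3′ on the strand of the gene). All 3 genes lie on the minus strand. Capitals mark each match on either strand to an AP-1 site (TGANTCA), a cAMP response element (TGACGTCA), the core of a PU.1 site (GAGGAA) or an NF-kB site. AP-1 and NF-kB are factors that LPS signalling activates, the cAMP response element is bound downstream of Gs, and PU.1 is a lineage factor of myeloid cells.
Gna15, chr10:81524226-81524475: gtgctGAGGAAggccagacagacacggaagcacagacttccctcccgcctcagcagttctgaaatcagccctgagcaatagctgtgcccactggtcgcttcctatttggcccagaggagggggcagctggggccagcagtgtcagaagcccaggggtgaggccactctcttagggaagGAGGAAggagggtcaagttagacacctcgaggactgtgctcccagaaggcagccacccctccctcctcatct
Gng2, chr14:19976694-19976943: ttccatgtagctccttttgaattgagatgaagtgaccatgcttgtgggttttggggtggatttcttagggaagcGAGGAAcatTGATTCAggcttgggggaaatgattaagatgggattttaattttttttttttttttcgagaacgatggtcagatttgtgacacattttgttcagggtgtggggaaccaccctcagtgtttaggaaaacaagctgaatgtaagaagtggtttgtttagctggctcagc
Gnai3, chr3:108146153-108146402: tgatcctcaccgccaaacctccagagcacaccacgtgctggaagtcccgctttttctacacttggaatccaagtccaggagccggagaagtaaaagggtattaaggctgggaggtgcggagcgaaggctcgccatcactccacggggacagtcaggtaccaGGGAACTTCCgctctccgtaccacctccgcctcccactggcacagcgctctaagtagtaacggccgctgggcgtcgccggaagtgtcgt

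The Gna15 window held 2 PU.1 cores, the Gng2 window 1 PU.1 core and 1 AP-1 match, and the Gnai3 window 1 NF-kB match. Among all 32851 RefSeq promoter windows of this length, 23.3% held a PU.1 core, 6.7% an AP-1 match, 7.3% an NF-kB match and 1.5% a cAMP response element. G and C made up 60.4% of the Gna15, 41.2% of the Gng2 and 59.6% of the Gnai3 window, against a median of 52.4% over all windows. The Gng2 window lies inside the annotated span of the gene and holds no exon; another annotated start lies upstream of it, and which start these cells use was not tested. Of the 10 members, 9 had an entry in the table of promoters, and Gnb1 was the only other one with an NF-kB match. None of the windows of these 9 genes held a cAMP response element, which says only that these letters are not there.

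**Figure D1:**
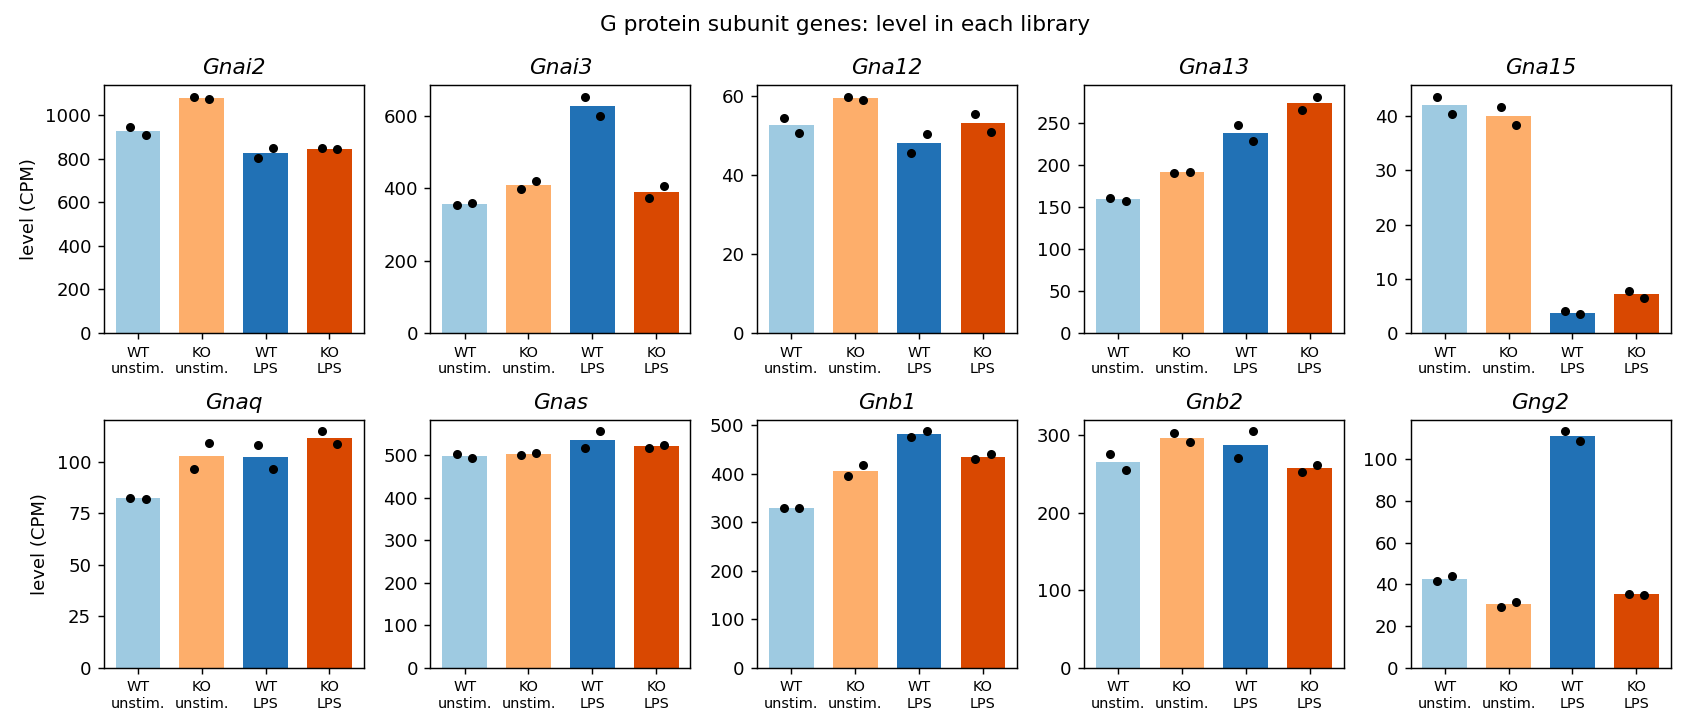
Level of each of the 10 subunit genes in CPM (y axis, from 0) for the 4 groups (x axis); each point is 1 library and each bar the mean of 2. Gng2 stood at 113.4 and 108.9 CPM in LPS-stimulated WT and at 43.9 CPM or less in all other libraries, and Gna15 at 7.82 CPM or less in the 4 LPS libraries.

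Gnai2 and Gnai3 encode the alpha subunits of the Gi class that leukocytes use downstream of chemokine receptors. Gnai2 (ENSMUSG00000032562, chr9:107614125-107635367, minus strand) stood at 944.9 and 906.9 CPM in unstimulated WT, 1084.7 and 1073.0 CPM in untreated 3xGrk-/-, 801.3 and 850.2 CPM in LPS-stimulated WT and 847.9 and 843.9 CPM in LPS-stimulated 3xGrk-/- libraries. The genotypes did not overlap before LPS and overlapped after it. Unstimulated 3xGrk-/- cells had 1.17-fold more Gnai2 (log2 fold change 0.22, SE 0.0337, edgeR adjusted p = 4.22e-10). After LPS the difference was 0.03 on the log2 scale, with a 95% interval of -0.07 to 0.14 (edgeR adjusted p = 0.646). LPS lowered Gnai2 to 0.892 of its level in WT (log2 fold change -0.16, SE 0.0458, edgeR adjusted p = 0.00287) and to 0.784 in 3xGrk-/- cells (-0.35, SE 0.0457, edgeR adjusted p = 1.89e-07).

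Gnai3 (ENSMUSG00000000001, chr3:108107280-108146146, minus strand) stood at 352.9 and 359.2 CPM in unstimulated WT, 397.8 and 419.7 CPM in untreated 3xGrk-/-, 652.5 and 600.3 CPM in LPS-stimulated WT and 371.9 and 406.6 CPM in LPS-stimulated 3xGrk-/- libraries. LPS-stimulated WT libraries were thus the highest, and the 3xGrk-/- libraries of both conditions overlapped one another. Gnai3 was 1.15-fold higher in 3xGrk-/- than in WT cells before LPS (log2 fold change 0.20, SE 0.0415, edgeR adjusted p = 9.32e-06). It was lower after LPS, at 0.621 of the WT level (log2 fold change -0.69, SE 0.065, edgeR adjusted p = 1.52e-08). The response to LPS was a rise of 1.76-fold in WT cells (log2 fold change 0.81, SE 0.0554, edgeR adjusted p = 3.35e-13) and -0.07 on the log2 scale in 3xGrk-/- cells (SE 0.0557, edgeR adjusted p = 0.303). With scaling by library size alone the latter was -0.29 and passed the test (edgeR adjusted p = 6.21e-05).

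The ratio of Gnai2 to Gnai3 followed from this. Set per kilobase of exon, Gnai2 exceeded Gnai3 by a factor of 2.31 and 2.18 in unstimulated WT and 2.35 and 2.21 in unstimulated 3xGrk-/- libraries. After LPS the ratio was 1.06 and 1.22 in WT and 1.97 and 1.79 in 3xGrk-/- libraries. The genotypes were therefore apart after LPS and overlapped before it. With the longest transcript as the length the ratios were 3.94 and 3.72 in WT and 4.02 and 3.76 in 3xGrk-/- libraries before LPS. After LPS they were 1.81 and 2.09 against 3.36 and 3.06, in the same order.

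Gna12 and Gna13 encode the alpha subunits of the G12/13 class. Gna13 (ENSMUSG00000020611, chr11:109362831-109401369, plus strand) stood at 160.5 and 157.4 CPM in unstimulated WT, 190.0 and 191.5 CPM in untreated 3xGrk-/-, 246.9 and 228.2 CPM in LPS-stimulated WT and 265.4 and 280.7 CPM in LPS-stimulated 3xGrk-/- libraries. It was the one member that rose after LPS in both genotypes, and the 4 groups did not overlap. The rise was 1.49-fold in WT (log2 fold change 0.58, SE 0.0582, edgeR adjusted p = 1.2e-09) and 1.43-fold in 3xGrk-/- cells (0.52, SE 0.0567, edgeR adjusted p = 7.89e-09). Gna13 was higher in 3xGrk-/- cells before LPS (log2 fold change 0.26, SE 0.0513, edgeR adjusted p = 1.35e-06) and after it (0.20, SE 0.065, edgeR adjusted p = 0.0143). The latter call was lost with scaling by library size alone (0.11, edgeR adjusted p = 0.168), with DESeq2 (adjusted p = 0.0558) and when either LPS-stimulated 3xGrk-/- library was left out (log2 fold change 0.25 without replicate 1, edgeR adjusted p = 0.0601, and 0.17 without replicate 2, edgeR adjusted p = 0.248). Gna12 (ENSMUSG00000000149, chr5:140758408-140830431, minus strand) lay between 45.5 and 59.7 CPM in all 8 libraries and passed the test in no comparison as reported; with scaling by library size alone it was lower after LPS, by -0.34 in WT and -0.38 in 3xGrk-/- cells. Its exons overlap those of Amz1 on the opposite strand, which held 224 to 531 reads without and 15 to 32 reads with LPS, and the strand setting of the counting is not given in the sources used here. Exons of Gna13 overlap those of Gm11696 on the opposite strand, which held 13 to 24 reads.

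Gna15 and Gnaq encode alpha subunits of the Gq class, and Gna15, known for coupling to many receptors, is mainly a gene of blood cells. Gna15 (ENSMUSG00000034792, chr10:81502306-81524225, minus strand) stood at 43.6 and 40.4 CPM in unstimulated WT, 41.7 and 38.4 CPM in untreated 3xGrk-/-, 3.99 and 3.56 CPM in LPS-stimulated WT and 7.82 and 6.49 CPM in LPS-stimulated 3xGrk-/- libraries. The unstimulated genotypes overlapped, the LPS libraries lay far below them, and after LPS both 3xGrk-/- libraries lay above both WT libraries. Gna15 fell to 0.0904 of the unstimulated level in WT (log2 fold change -3.47, SE 0.166, edgeR adjusted p = 1.27e-16) and to 0.178 in 3xGrk-/- cells (-2.49, SE 0.146, edgeR adjusted p = 1.46e-14). The 2 LPS-stimulated WT libraries held 22 and 23 reads of it and the 3xGrk-/- libraries 43 and 40. On these reads the level after LPS was 1.89-fold higher in 3xGrk-/- cells (log2 fold change 0.92, SE 0.268, edgeR adjusted p = 0.0073). That call was lost with DESeq2 (log2 fold change 0.94, adjusted p = 0.169), without replicate 2 of LPS-stimulated WT and without replicate 1 of LPS-stimulated 3xGrk-/- cells, where the log2 fold change was 0.84 and 0.79.

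Gnaq (ENSMUSG00000024639, chr19:16132831-16387463, plus strand) stood at 82.5 and 82.1 CPM in unstimulated WT, 96.6 and 109.2 CPM in untreated 3xGrk-/-, 108.1 and 96.7 CPM in LPS-stimulated WT and 114.7 and 108.8 CPM in LPS-stimulated 3xGrk-/- libraries. The unstimulated WT libraries lay below all others, and the unstimulated 3xGrk-/- libraries overlapped both LPS groups. Gnaq was 1.25-fold higher in unstimulated 3xGrk-/- than in WT cells (log2 fold change 0.32, SE 0.0675, edgeR adjusted p = 1.14e-05) and rose after LPS in WT cells (0.31, SE 0.0778, edgeR adjusted p = 0.00106), a call lost with scaling by library size alone (0.10, edgeR adjusted p = 0.297). In 3xGrk-/- cells the response to LPS was 0.12 (edgeR adjusted p = 0.176), and the genotype difference after LPS was 0.13 (edgeR adjusted p = 0.204), which passed without replicate 1 of LPS-stimulated WT (0.22, edgeR adjusted p = 0.0175). Per kilobase, Gnaq stood below Gna15 in every unstimulated library, at ratios of 0.654 to 0.982, and above it in every LPS library, at 9.35 and 9.38 in WT and 5.07 and 5.79 in 3xGrk-/- cells.

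Gnas, whose product raises cAMP, was the steadiest member. Its level (ENSMUSG00000027523, chr2:174284320-174346744, plus strand) lay between 494.6 and 555.9 CPM in all 8 libraries. The genotype difference was 0.01 (95% interval -0.06 to 0.09) before and -0.04 (-0.16 to 0.07) after LPS on the log2 scale, and no comparison passed the test as reported; with scaling by library size alone it fell after LPS in 3xGrk-/- cells, by -0.17 (edgeR adjusted p = 0.00574), and without replicate 1 of LPS-stimulated WT it rose in WT cells (0.16, edgeR adjusted p = 0.00282). The reads of this gene are the sum over transcripts from several start sites.

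The beta subunit genes Gnb1 and Gnb2 moved less than the gamma subunit gene. Gnb1 (ENSMUSG00000029064, chr4:155491361-155559269, plus strand) stood at 329.0 and 330.2 CPM in unstimulated WT, 394.5 and 418.3 CPM in untreated 3xGrk-/-, 475.0 and 486.9 CPM in LPS-stimulated WT and 429.4 and 440.5 CPM in LPS-stimulated 3xGrk-/- libraries. No pair of groups overlapped. Gnb1 was 1.23-fold higher in 3xGrk-/- cells before LPS (log2 fold change 0.30, SE 0.0419, edgeR adjusted p = 6.08e-12) and 0.904 of the WT level after it (-0.15, SE 0.0583, edgeR adjusted p = 0.0448). LPS raised it 1.46-fold in WT cells (0.55, SE 0.0511, edgeR adjusted p = 3.05e-10), against 0.10 (SE 0.0508, edgeR adjusted p = 0.102) in 3xGrk-/- cells. With scaling by library size alone the value in 3xGrk-/- cells was -0.12 and passed the test as a fall (edgeR adjusted p = 0.0471).

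Gnb2 (ENSMUSG00000029713, chr5:137528127-137533510, minus strand) stood at 275.5 and 255.1 CPM in unstimulated WT, 302.8 and 290.5 CPM in untreated 3xGrk-/-, 270.2 and 304.6 CPM in LPS-stimulated WT and 252.7 and 261.4 CPM in LPS-stimulated 3xGrk-/- libraries. The WT groups overlapped and the 3xGrk-/- groups did not. It was higher in 3xGrk-/- cells before LPS (log2 fold change 0.17, SE 0.0448, edgeR adjusted p = 0.000773) and lower after it (-0.16, SE 0.0654, edgeR adjusted p = 0.0461). LPS lowered it in 3xGrk-/- cells (-0.21, SE 0.06, edgeR adjusted p = 0.00457), a call lost without replicate 1 of either 3xGrk-/- group (-0.17 and -0.18), against 0.12 in WT cells (edgeR adjusted p = 0.0882), which passed without replicate 1 of LPS-stimulated WT (0.21). The differences of Gnb1 and Gnb2 after LPS lay just past the threshold, and both calls were lost under 9 of 13 alternatives, among them DESeq2 (adjusted p = 0.193 and 0.265), RLE scaling and the replicate block (edgeR adjusted p = 0.11 and 0.0796), and without replicate 2 of LPS-stimulated WT (-0.12 and -0.06) or either LPS-stimulated 3xGrk-/- library (-0.12 and -0.13 without replicate 1, -0.15 and -0.17 without replicate 2). The call of Gnb2 before LPS was lost with DESeq2 (adjusted p = 0.0574), library size alone and without replicate 2 of unstimulated WT (0.10).

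Gng2, whose product forms a lasting pair with a beta subunit, showed the largest genotype difference of the 10 in both conditions. It (ENSMUSG00000043004, chr14:19872559-19977627, minus strand) stood at 41.6 and 43.9 CPM in unstimulated WT, 29.2 and 31.6 CPM in untreated 3xGrk-/-, 113.4 and 108.9 CPM in LPS-stimulated WT and 35.6 and 35.0 CPM in LPS-stimulated 3xGrk-/- libraries. The LPS-stimulated 3xGrk-/- libraries lay below the unstimulated WT libraries. Gng2 was at 0.707 of the WT level before LPS (log2 fold change -0.50, SE 0.105, edgeR adjusted p = 8.34e-06) and at 0.318 after it (-1.65, SE 0.0917, edgeR adjusted p = 2.66e-12). LPS raised it 2.59-fold in WT cells (1.37, SE 0.0824, edgeR adjusted p = 2.12e-14). In 3xGrk-/- cells the response was 0.22 (95% interval 0.01 to 0.42, edgeR adjusted p = 0.0763). Each of these 3 calls held under every alternative except a biological coefficient of variation (BCV) of 0.4 for every gene. The common BCV as fitted was 0.0306 for the unstimulated, 0.0573 for the LPS-stimulated and 0.0463 for all 8 libraries. Exons of Gng2 overlap those of Gm48283 on the opposite strand, which is not among the genes counted.

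**Figure D2:**
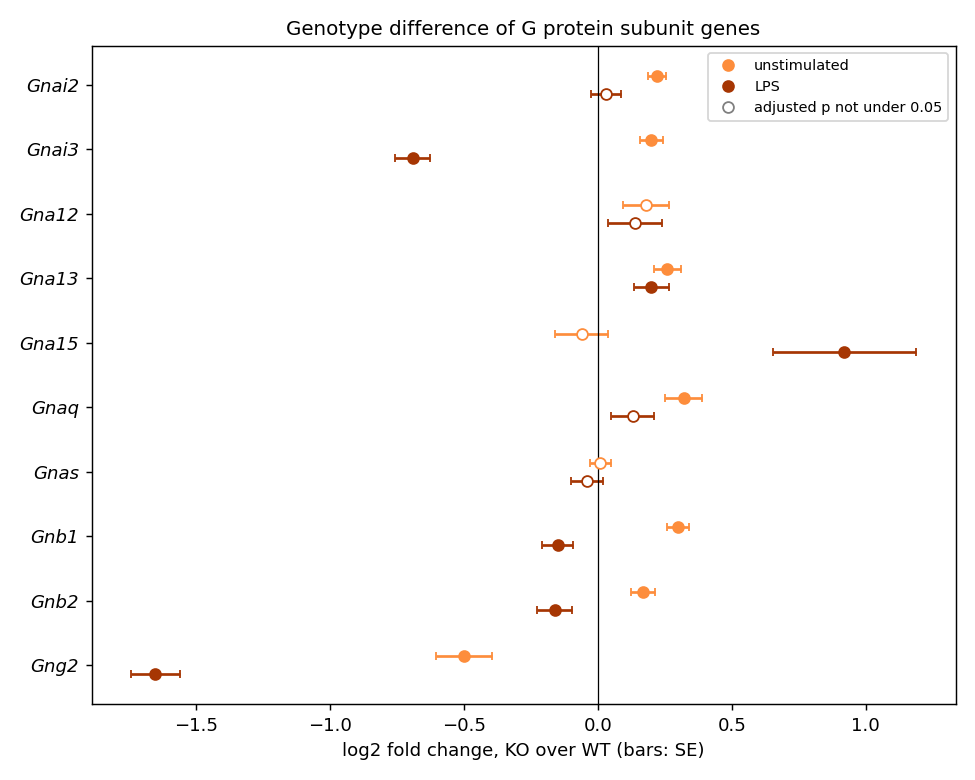
Difference between 3xGrk-/- (KO) and WT cells for each subunit gene as a log2 fold change (x axis) with its SE as a bar, before LPS (light) and after it (dark); filled points have an adjusted p under 0.05. Gng2 lay at -0.50 and -1.65, Gnai3 changed from 0.20 to -0.69, and Gna15 reached 0.92 after LPS.

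Counted over the members, 6 were higher and 1 lower in unstimulated 3xGrk-/- than in WT cells, and 3 did not pass. Over all 12000 genes tested, 44.7% were called, 22.1% higher and 22.7% lower; under scaling by library size alone the calls were 1968 higher and 3525 lower in place of 2647 and 2722. The libraries of the genotypes did not overlap for 8 of 10 members, against 69.1% of all genes. The size of the members' differences was ordinary: the median absolute log2 fold change was 0.21, against 0.24 over all genes. After LPS 2 members were higher, 4 lower and 4 did not pass, where 24.7% of 11830 genes were higher, 24.0% lower and 48.6% called in all; by library size alone the calls were 2474 higher and 3572 lower in place of 2919 and 2835. Again 8 of 10 did not overlap (72.6% of all genes), and the median absolute log2 fold change was 0.15 against 0.33. Without replicate 2 of LPS-stimulated WT 1 member was higher and 2 lower, without replicate 1 of LPS-stimulated 3xGrk-/- cells 0 and 2, and without its replicate 2 there were 1 and 2.

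For the responses to LPS, 5 members rose, 2 fell and 3 did not pass in WT cells, where 60.3% of 12541 genes were called, 29.5% up and 30.8% down. In 3xGrk-/- cells 1 rose, 3 fell and 6 did not pass, where 55.4% were called, 28.0% up and 27.4% down; with scaling by library size alone 7 members fell in 3xGrk-/- cells. The libraries did not overlap for 9 members in WT (78.2% of all genes) and 8 in 3xGrk-/- cells (77.6%). Both comparisons depend on the scaling, since library size alone shifted all log2 fold changes by a median of -0.21 in WT and -0.22 in 3xGrk-/- cells. The calls over all genes were 3702 up and 3859 down in WT as reported and 2443 up and 5420 down with library size alone, and 3510 up and 3435 down against 2245 up and 5200 down in 3xGrk-/- cells. Under that scaling the small positive values of Gnas and Gnb2 in WT and of Gnaq, Gnas and Gnb1 in 3xGrk-/- cells turned negative, whereas the directions of Gnai3 and Gng2 in WT cells, and of Gna13 and Gna15 in both genotypes, did not. Whether unstimulated and LPS-stimulated libraries were sequenced together is not given in the sources used here, so that a difference between runs cannot be told apart from stimulation.

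**Figure D3:**
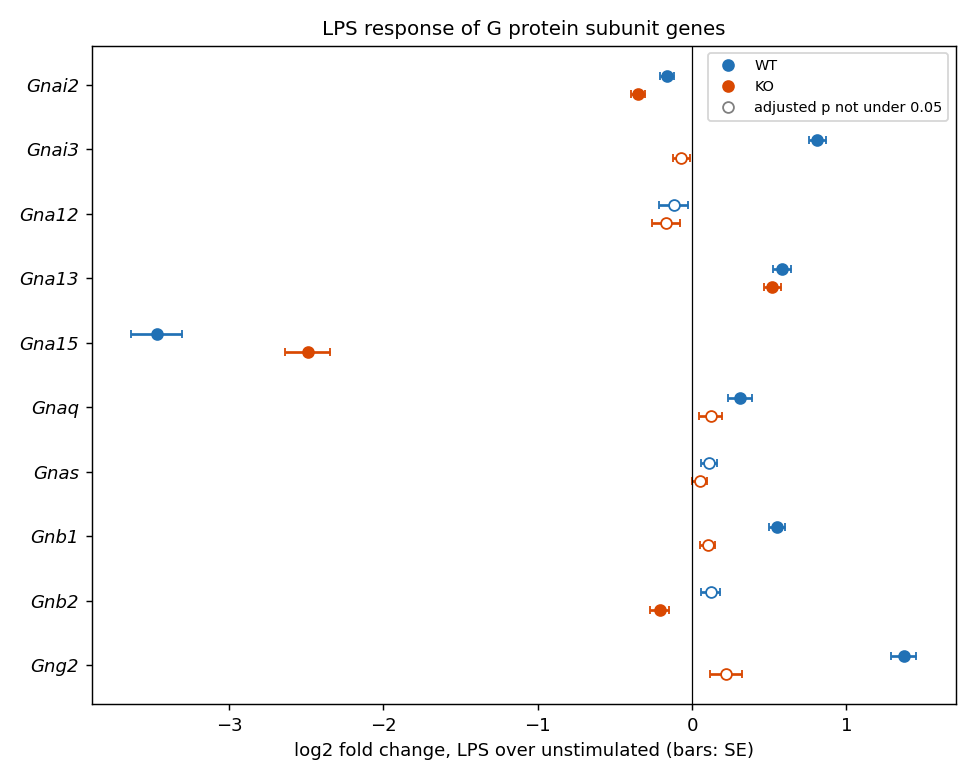
Response to LPS of each subunit gene as a log2 fold change over unstimulated cells (x axis) with its SE as a bar, in WT (blue) and 3xGrk-/- (KO, orange) cells; filled points have an adjusted p under 0.05. Gng2 lay at 1.37 and 0.22, Gnai3 at 0.81 and -0.07, and Gna15 at -3.47 and -2.49.

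The difference between the genotypes changed with LPS for 6 of 10 members in the test of the interaction itself, 1 upwards and 5 downwards, where 32.5% of all genes were called, 16.5% upwards and 16.0% downwards. Gng2 changed by -1.15 on the log2 scale (SE 0.134, edgeR adjusted p = 7.28e-08), Gnai3 by -0.88 (SE 0.0785, edgeR adjusted p = 4.97e-10) and Gnb1 by -0.45 (SE 0.072, edgeR adjusted p = 1.44e-05). Gnb2 changed by -0.33 (SE 0.0848, edgeR adjusted p = 0.00343) and Gnai2 by -0.19 (SE 0.0647, edgeR adjusted p = 0.0271). Gna15 changed by 0.98 (SE 0.268, edgeR adjusted p = 0.00532). The calls of Gng2, Gnai3, Gna15 and Gnb1 were lost under 1 of 16 alternatives, the BCV of 0.4. That of Gnai2 was lost under 7, among them the fits without replicate 2 of unstimulated WT (-0.14) and without any one 3xGrk-/- library (-0.20 to -0.18). That of Gnb2 was also lost without replicate 2 of unstimulated WT (-0.25), where 3 members in place of 5 were called downwards. Gna12, Gna13, Gnaq and Gnas did not pass, with values between -0.19 and -0.04; Gnaq passed without replicate 2 of LPS-stimulated WT (-0.27, edgeR adjusted p = 0.0338).

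Set against one another per kilobase of exon, the members were led by Gnai2 in all groups. In unstimulated WT cells Gnai2 led with 245 CPM per kb (SD 7.11, n = 2), followed by Gnai3 (109), Gnb2 (78.0), Gnb1 (77.2), Gnas (44.6), Gna13 (24.8), Gna15 (19.7), Gna12 (15.4), Gnaq (13.3) and Gng2 (9.74). Of these neighbours, Gnb2 and Gnb1 overlapped. In unstimulated 3xGrk-/- cells Gnb1 (95.2) stood above Gnb2 (87.2), and Gna12 and Gnaq overlapped. After LPS Gng2 held rank 7 in WT cells (25.3 CPM per kb) and rank 9 in 3xGrk-/- cells (8.05), and Gna15 was last in both (1.77 and 3.35). The order of Gnai3, Gnb1, Gnb2 and Gnas depends on the length used: the exons of Gnas, for example, span 11186 bases together, whereas its longest transcript has 3947. With the longest transcript Gnai3 held rank 2 in LPS-stimulated WT cells (192), rank 4 in unstimulated WT cells (109) and rank 5 in both 3xGrk-/- groups (125 and 119). In unstimulated 3xGrk-/- cells Gnai3 overlapped Gnas (127), and Gnas overlapped Gnb1 (129), so that their order there is not resolved. Rank 2 was then held by Gnb2 in unstimulated WT (143) and 3xGrk-/- cells (159, above Gnb1 with 129), and by Gnb1 in LPS-stimulated 3xGrk-/- cells (138), where it overlapped Gnb2. Gnai2 led in every group with either length.

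As shares of the summed level per kilobase of all 16 alpha subunit genes, Gnai2 held 51.0 to 53.1% in the unstimulated libraries of both genotypes, 39.7 and 42.3% in LPS-stimulated WT and 47.7 and 46.6% in LPS-stimulated 3xGrk-/- libraries. Gnai3 held 22.5 to 23.6% in the unstimulated libraries, 37.5 and 34.6% in LPS-stimulated WT and 24.3 and 26.0% in LPS-stimulated 3xGrk-/- libraries. Together the genes of the Gi class kept 72.0 to 77.2% in every library. The Gq class fell from 7.78 and 7.85% to 4.40 and 4.13% in WT and from 7.25 and 7.28% to 5.86 and 5.22% in 3xGrk-/- cells. The G12/13 class held 9.70 and 9.47% in LPS-stimulated WT and 12.2% in both LPS-stimulated 3xGrk-/- libraries. With the longest transcript as the length the Gi class held 69.2 to 73.7%, and the Gs class 15.3 to 18.3% in place of 8.29 to 9.86%. Gnai3 then held 14.5 to 15.4% in the unstimulated libraries. After LPS it held 25.9 and 23.4% in WT and 15.9 and 17.1% in 3xGrk-/- libraries.

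**Figure D4:**
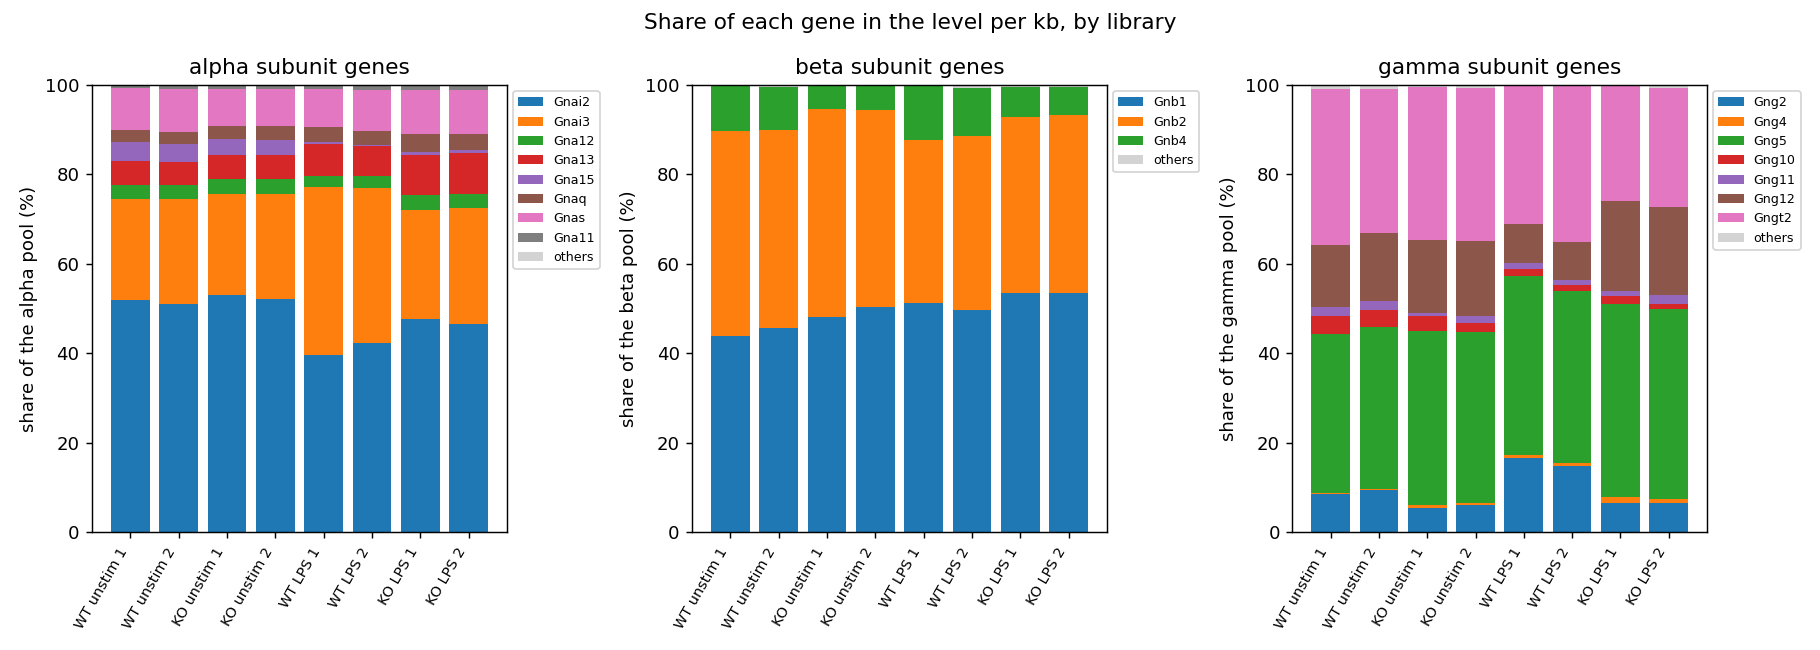
Share of each gene (percent, y axis) in the level per kilobase summed over the alpha, beta and gamma subunit genes, for each of the 8 libraries (x axis). Gnai3 widened to 37.5 and 34.6% of the alpha pool in LPS-stimulated WT libraries, and Gng2 to 16.7 and 14.8% of the gamma pool.

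Among gamma subunit genes Gng2 held 8.57 and 9.48% in unstimulated WT, 5.48 and 6.18% in unstimulated 3xGrk-/-, 16.7 and 14.8% in LPS-stimulated WT and 6.56 and 6.52% in LPS-stimulated 3xGrk-/- libraries. Gng5 held 35.6 to 43.2% and Gngt2 25.7 to 34.9% of this pool, and Gng5 was the larger in every library; with the longest transcript Gngt2 (36.0%) exceeded Gng5 (35.5%) in replicate 1 of unstimulated WT. The ratio of Gng2 to Gng12 per kilobase was 0.614 and 0.624 in unstimulated and 1.87 and 1.77 in LPS-stimulated WT libraries. In 3xGrk-/- libraries it was 0.332 and 0.372 before and 0.327 and 0.331 after LPS. Among beta subunit genes, Gnb4 held 9.63% or more in WT and 5.23 to 6.64% in 3xGrk-/- libraries.

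Of the other 23 subunit genes, 10 were tested in the fit of all libraries. Of all 33, 20 passed the filter on low counts in the fit of 8 libraries, and the 13 that did not had at most 9 reads in any library. Gnat1, Gna14, Gng3, Gng13 and Gngt1 had 0 reads in all 8, which allows a level of up to 0.433 to 0.636 CPM (3 counts, not scaled), depending on the library, for counting error only. Of the 8 others tested without LPS, 3 were higher and 2 lower in 3xGrk-/- cells, where 44.7% of all genes were called. After LPS 1 of 9 was higher and 3 were lower, where 48.6% of all genes were called.

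Gnb4, which also encodes a beta subunit, stood at 221.6 and 206.9 CPM in unstimulated WT, 127.5 and 132.7 CPM in untreated 3xGrk-/-, 332.2 and 318.9 CPM in LPS-stimulated WT and 158.9 and 154.2 CPM in LPS-stimulated 3xGrk-/- libraries. It was lower in 3xGrk-/- cells by -0.72 (SE 0.0522, edgeR adjusted p = 2.39e-41) before and -1.06 (SE 0.0636, edgeR adjusted p = 1.03e-11) after LPS on the log2 scale. Gng12 went the other way. It stood at 73.0 and 75.7 CPM in unstimulated WT, 94.7 and 91.5 CPM in untreated 3xGrk-/-, 65.1 and 66.2 CPM in LPS-stimulated WT and 117.3 and 114.0 CPM in LPS-stimulated 3xGrk-/- libraries, a difference of 0.32 (SE 0.0709, edgeR adjusted p = 2.3e-05) before and 0.81 (SE 0.0802, edgeR adjusted p = 2.76e-08) after LPS. Gng5 was higher in 3xGrk-/- cells before LPS (0.25, edgeR adjusted p = 0.00015) and lower after it (-0.26, edgeR adjusted p = 0.00342), and both calls were lost with DESeq2 (adjusted p = 0.0574 and 0.0609), the latter also without either LPS-stimulated 3xGrk-/- library (-0.27 and -0.22).

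Gngt2, a gamma subunit gene first known from cone photoreceptors, stood at 72.6 and 63.5 CPM in unstimulated WT, 77.3 and 75.0 CPM in untreated 3xGrk-/-, 89.1 and 109.5 CPM in LPS-stimulated WT and 59.6 and 61.3 CPM in LPS-stimulated 3xGrk-/- libraries. It was lower in 3xGrk-/- cells after LPS by -0.72 (SE 0.0964, edgeR adjusted p = 2.35e-06), whereas the value of 0.18 before LPS (edgeR adjusted p = 0.0462) was lost with DESeq2, the replicate block (edgeR adjusted p = 0.0592) and without replicate 2 of unstimulated WT (0.07) or either untreated 3xGrk-/- library (0.16 and 0.20). Its exons overlap those of Abi3 on the opposite strand, with 153 to 321 reads. Gng7, with 4 to 24 reads in a library, was lower in unstimulated 3xGrk-/- cells by -0.89 (SE 0.384, edgeR adjusted p = 0.0427), a call lost with DESeq2 (adjusted p = 0.504), the replicate block (edgeR adjusted p = 0.0684) and all 4 fits without 1 library. Gna11, Gnb5, Gng4, Gng10 and Gng11 did not pass in either genotype comparison in which they were tested.

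**Figure D5:**
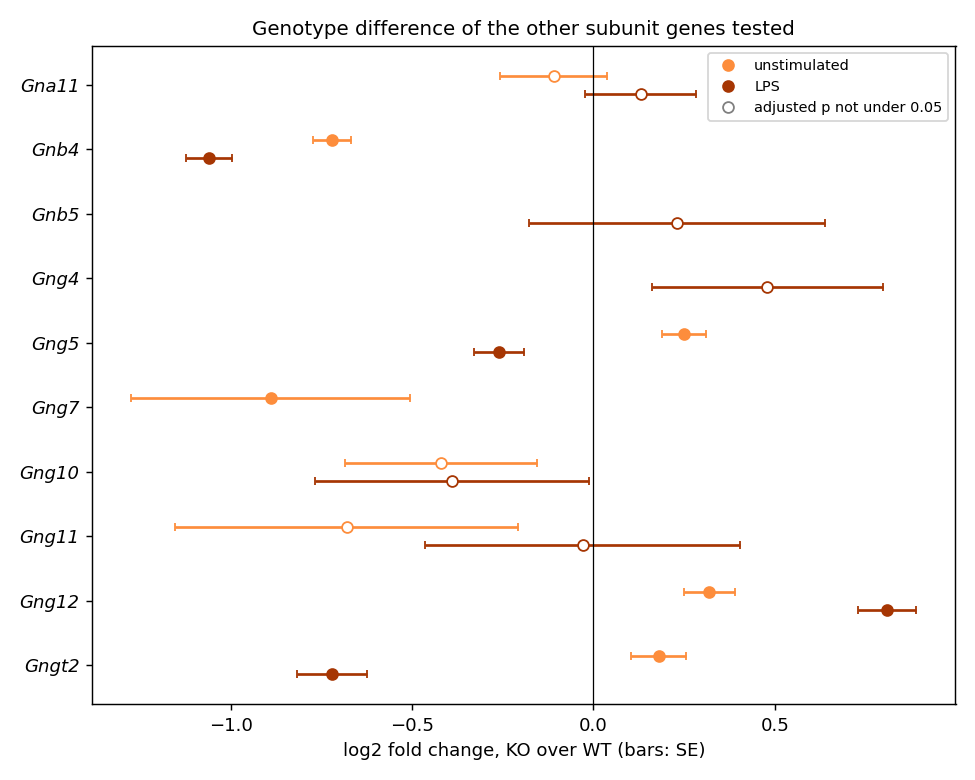
Difference between 3xGrk-/- (KO) and WT cells as a log2 fold change (x axis) with its SE as a bar for the other subunit genes that were tested, before LPS (light) and after it (dark); filled points have an adjusted p under 0.05. Gnb4 lay at -0.72 and -1.06, and Gng12 at 0.32 and 0.81.

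The responses of these other genes to LPS were as mixed. Gng4, with 3 to 16 reads in the unstimulated and 14 to 31 in the LPS libraries, and Gnb5, with 5 to 9 and 7 to 22, passed the filter on low counts through the LPS libraries, and Gng7, with 10 to 24 and 4 to 14, through the unstimulated libraries. Since such a passage favours a difference, these 3 genes are left out of the counts. Of the other 7, 3 rose in WT cells, namely Gnb4 (0.61), Gng5 (0.70) and Gngt2 (0.56), and 2 fell, namely Gng10 (-0.93) and Gng12 (-0.18), all on the log2 scale, where 60.3% of all genes were called. In 3xGrk-/- cells 3 rose, namely Gnb4 (0.27), Gng5 (0.20) and Gng12 (0.31), and 2 fell, namely Gng10 (-0.90) and Gngt2 (-0.33), where 55.4% of all genes were called. DESeq2 lost the calls of Gng10 and Gng12 in WT cells (adjusted p = 0.158 and 0.247) and of Gng5 and Gng10 in 3xGrk-/- cells (adjusted p = 0.0841 and 0.242). The fall of Gng12 in WT cells was also lost with no filter, with the replicate block (edgeR adjusted p = 0.0567) and in all 4 fits without 1 library, and that of Gng10 without replicate 1 of unstimulated WT (-0.87). In 3xGrk-/- cells Gng5 was also lost without replicate 2 of the untreated (0.16) and replicate 1 of the LPS-stimulated libraries (0.18), and Gng10 without replicate 1 of the untreated (-0.48) and replicate 2 of the LPS-stimulated libraries (-0.51). With scaling by library size alone Gng5 (-0.02), Gnb4 (0.05) and Gng12 (0.09) did not pass in 3xGrk-/- cells. In the interaction 1 of these 7 changed upwards (Gng12) and 3 downwards (Gnb4, Gng5 and Gngt2), where 32.5% of all genes were called.

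The regulators and effectors of the subunits were counted in the same way, against 44.7% of all genes called between genotypes before and 48.6% after LPS. Of 8 chaperones and regulators that act without a receptor, 3 were higher and 2 lower in unstimulated 3xGrk-/- cells, and 1 was higher and 1 lower after LPS. Gpsm2, which binds the inactive form of Gi alpha subunits, lay between 2.54 and 5.35 CPM in WT and between 7.46 and 13.2 CPM in 3xGrk-/- libraries, and was higher in both conditions (log2 fold change 1.23, edgeR adjusted p = 4.27e-08, and 1.29, edgeR adjusted p = 0.000626). Of 9 adenylyl cyclases 3 were tested, with 2 higher and 0 lower before LPS and 2 higher and 1 lower after it. Adcy9 was higher by 1.02 (edgeR adjusted p = 0.000186) and 1.29 (edgeR adjusted p = 0.000229) at no more than 10.7 CPM, and the former call was lost with DESeq2 (adjusted p = 0.195) and without replicate 2 of unstimulated WT (0.42). Of 4 effectors of G12/13, 1 was higher before and 2 were lower after LPS.

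Of 7 effectors of Gq, 5 were tested in each genotype comparison, among them Kalrn, which passed the filter before LPS only through WT (14 and 18 reads, against 4 and 7 in 3xGrk-/- libraries), and Plcb1, which passed it after LPS only through 3xGrk-/- cells (21 and 12 reads, against 8 and 4 in WT). Both are left out of the counts for the same reason. Of the other 4, 1 was higher and 3 were lower in 3xGrk-/- cells before LPS, and 2 were higher and 0 lower after it, where 44.7% and 48.6% of all genes were called. The exchange factor gene Arhgef25 was lower before LPS (log2 fold change -1.45, edgeR adjusted p = 7.48e-05) at no more than 5.73 CPM, a call lost with DESeq2 (adjusted p = 0.0789). Plcb2, which encodes a phospholipase C-beta of blood cells, was chosen for mention after its values were seen. It stood at 271.1 and 273.3 CPM in unstimulated WT, 184.4 and 191.5 CPM in untreated 3xGrk-/-, 36.7 and 34.8 CPM in LPS-stimulated WT and 49.1 and 50.6 CPM in LPS-stimulated 3xGrk-/- libraries, so that, as for Gna15, the LPS libraries were the lowest and those of WT lay below those of 3xGrk-/- cells.

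Of 5 effectors of beta-gamma pairs, 2 were higher and 1 lower before LPS, and 1 was higher and 2 lower after it. Pik3cg, the catalytic subunit of phosphoinositide 3-kinase gamma, stood at 303.0 and 324.9 CPM in unstimulated WT, 290.5 and 301.8 CPM in untreated 3xGrk-/-, 627.6 and 612.8 CPM in LPS-stimulated WT and 250.3 and 248.4 CPM in LPS-stimulated 3xGrk-/- libraries. The LPS-stimulated WT libraries were the highest, as they were for Gng2. Its genotype difference was -0.09 before LPS (edgeR adjusted p = 0.0898; -0.17 and past the threshold with library size alone, -0.13 and past it without replicate 1 of unstimulated WT) and -1.32 after it (SE 0.0599, edgeR adjusted p = 9.58e-14), and the interaction was -1.23 (edgeR adjusted p = 2.24e-13).

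Over the 8 libraries, the genes most like a member were sought among 9150 genes by Pearson's r of log2 CPM, as a description, since the points share their groups. For Gna15 these were Pabpc4, for a poly(A)-binding protein (r = 0.998), and Hgfac, for a secreted protease (r = 0.996), and 273 genes had an r above 0.95. Hgfac had group means of 37.5 CPM in unstimulated WT, 27.5 in unstimulated 3xGrk-/-, 1.5 in LPS-stimulated WT and 3.87 in LPS-stimulated 3xGrk-/- cells. For Gng2 they were Lad1 and Fnbp1 (r = 0.997 for both, 130 genes above 0.95), and Lad1 stood at 102.3, 62.0, 518.0 and 78.8 CPM in the same order. For Gnai3 they were Stk39, for a kinase (r = 0.991), and Eri1, for an exoribonuclease (r = 0.988), with 77 genes above 0.95, and Stk39 stood at 81.1, 94.4, 162.2 and 91.0 CPM.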

How the data were processed

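The authors sequenced stranded mRNA libraries, aligned the reads to the mouse genome mm10 with STAR within snakePipes, and deposited raw read counts per gene from featureCounts in 2 tables, 1 of unstimulated and 1 of LPS-stimulated libraries. The annotation release and strand setting of the counting are not given in the sources used here. Of 47937 Ensembl identifiers 47224 matched a gene symbol of GENCODE M21 (GRCm38), and the others held 0.0847% of the counts. Library totals of 4713305 to 6933358 counts set the precision, and intervals cover counting and library error only.

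Counts were tested with edgeR 4.0.16 in R 4.3.3 (limma 3.58.1; Python 3.11.15 for summaries) by the quasi-likelihood test after filterByExpr and TMM scaling, with p-values adjusted by Benjamini and Hochberg across every gene of the fit and a threshold of 0.05. Genotypes were compared within each table, and LPS responses and the interaction in a fit of all 8 libraries. Fold changes are log2, with SE taken as the unshrunk log2 fold change over the square root of F, and 95% intervals as 1.96 SE to each side. An exact permutation test of 2 against 2 libraries cannot go below p = 0.333 and was not used. CPM were scaled over all 8 libraries, and levels per kb divide by the exon union. The study used DESeq2; version 1.42.0 was run as an alternative, beside RLE scaling, library size alone, other filters, scaling without the 20 most abundant genes, a fixed BCV of 0.4, the replicate block, a fit of all 8 libraries for the genotypes, each library left out, and the longest transcript as the length. Scripts were tested on simulated data.

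All members were named, with every other subunit gene that passed the filter, pathway genes called in a genotype comparison whose log2 fold change reached 1 or -1, the targeted kinases, and the 2 genes most like each of the 3 members with the widest range. The members and lists were chosen with earlier results of these data known.

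Deviations of same-numbered libraries correlated at -0.065 to 0.072 over 9150 genes. If the libraries of a group are technical replicates of the same RNA, this check cannot see a pairing by mouse or culture. Whether the groups are paired in that way was therefore not tested.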

Additional observations from a re-analysis of the deposited data

Results flagged for a closer look

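The genotype difference changed with LPS, in the test of the interaction itself, for 10 of the subunit genes tested. On the log2 scale (difference after LPS minus difference before it) the values were -0.19 for Gnai2, -0.88 for Gnai3, 0.98 for Gna15, -0.45 for Gnb1, -0.33 for Gnb2 and -1.15 for Gng2 among the members, and -0.34 for Gnb4, -0.51 for Gng5, 0.49 for Gng12 and -0.89 for Gngt2 among the other subunit genes. Over all genes tested 32.5% were called, so that such a change was common in these libraries. The macrophage marker sum moved in the same comparison, from 1555.0 and 1500.2 CPM to 2787.1 and 2847.0 CPM in 3xGrk-/- and from 1045.4 and 1017.6 CPM to 406.8 and 412.9 CPM in WT libraries, as did the dendritic cell marker sum, from 7142.0 and 7015.2 CPM to 7972.8 and 7814.1 CPM in 3xGrk-/- and from 14220.8 and 14185.9 CPM to 9233.4 and 9882.6 CPM in WT libraries. The dendritic cell sum holds genes that moved apart with LPS. The mean of Ccr7 rose from 1223.9 to 3779.6 CPM in WT and from 1449.7 to 3033.8 CPM in 3xGrk-/- cells. That of Itgax fell from 946.8 to 67.0 and from 1082.7 to 340.1 CPM. That of H2-Aa went from 3976.8 to 1910.8 CPM in WT and from 1665.4 to 1660.2 CPM in 3xGrk-/- cells. The part of both sums in these values was not tested.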

How the results depend on the processing

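Over the alternatives, the log2 fold changes of members kept their direction and side of the threshold in 576 cases, were weaker in 64, stronger in 7 and reversed in 13; those of the other named genes did so in 1004, 128, 8 and 26. Under DESeq2 the genes called numbered 1484 higher and 1347 lower (genotype, unstimulated), 1671 lower (genotype, LPS), 2260 lower (LPS in 3xGrk-/-) and 1218 and 1232 (interaction). With a BCV of 0.4 they numbered 195 and 253, 569 and 213, 451 and 659 (LPS in WT), 552 and 298, and 61 and 11; members called were then 0 and 0 in both genotype comparisons and the interaction, and 0 higher and 1 lower in both LPS responses. With library size alone, 2443 genes rose in WT and 2245 rose and 5200 fell in 3xGrk-/- cells, where 7 members fell; 1 member was higher after LPS in the genotype comparison (0 with DESeq2). Members lower there were 2 with DESeq2, RLE, no filter and at least 10 counts in every library. The cause was not tested.

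Library size alone reversed Gnas (-0.07, unstimulated) and Gnai2 (-0.05, LPS) between genotypes; Gnas (-0.11), Gnb2 (-0.10), Gna11 (-0.18), Adcy9 (-0.06) and Grk6 (-0.02) for LPS in WT; and Gnaq (-0.10), Gnas (-0.17), Gnb1 (-0.12) and Gng5 (-0.02) for LPS in 3xGrk-/- cells. Gna11 in WT was 0.00 with at least 10 counts in every library. With the longest transcript Gnai2 held 56.8, 58.5, 47.8 and 52.8% of the alpha pool and Gnb2 50.2, 51.2, 42.5 and 45.4% of the beta pool (unstimulated WT and 3xGrk-/-, LPS-stimulated WT and 3xGrk-/-).

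With 1 library left out, members called between genotypes after LPS ranged from 0 to 3 higher and 2 to 4 lower, and lower in the interaction from 3 to 6. Ranges that crossed or reached 0 were, between genotypes without LPS, Gna15 -0.12 to 0.00, Gnas 0.00 to 0.02 and Gna11 -0.25 to 0.11; with LPS, Gnas -0.08 to 0.02, Gnb5 -0.26 to 1.15, Gng10 -0.83 to 0.01 and Gng11 -0.51 to 0.31; for LPS in WT, Gna11 -0.12 to 0.24, Adcy9 -0.43 to 0.82 and Plcb1 -0.85 to 0.36; for LPS in 3xGrk-/- cells, Gng7 -1.19 to 0.43 and Kalrn -0.64 to 0.36; and for the interaction, Gna12 -0.12 to 0.03, Gnb5 -0.26 to 1.15, Gng10 -0.43 to 0.45, Gpsm2 -0.23 to 0.48 and Adcy9 -0.37 to 0.88.

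In the labels the libraries share only a replicate number. The replicate block left 2 members lower between genotypes after LPS, in place of 4. A depth of 22 to 43 reads limits Gna15 after LPS.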
